A study of Mus musculus with 8 samples.

Results

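The genes described here are 10 amino acid transporters of the plasma membrane, Slc7a1, Slc7a5, Slc7a6, Slc7a11, Slc3a2, Slc1a4, Slc1a5, Slc38a1, Slc38a2 and Slc43a1, which were picked by name as carriers of cationic, large neutral, glutamine-like and cystine substrates. They are 10 of the 54838 genes in the deposited table, and 8 of them had enough counts to be tested. This choice was made with earlier results of these data known. The cells were acute myeloid leukaemia (AML) cells of C57BL/6 background that carry the RUNX1-RUNX1T1 fusion, and their RNA was counted in a Vehicle group of 4 samples and an AG636 group of 4, the latter from mice that received AG636, an inhibitor of the pyrimidine synthesis enzyme DHODH, by oral gavage b.i.d. at 100 mg/kg. Per the labels, all 8 samples came from cells transplanted into Ptprca hosts after sub-lethal irradiation, so the fusion, the transplant and the host are shared by both groups. The study's methods describe such irradiation for its other models and do not mention it for this model. The study describes the sorted cells of this model as cKit-high in one place and as cKit-positive, CD11b-negative in another, taken after 1 day of treatment. The age of the mice, and which sample came from bone marrow and which from spleen, are not given in the sources used here. The study's legend gives 3 mice per group, which is fewer than the 4 samples, and nothing states that each sample is a separate mouse, so the p-values measure the spread between samples, which may in part be technical.

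Cells cannot make the essential amino acids, and carriers of the SLC families bring them across the membrane. Most carriers of neutral amino acids are exchangers or are coupled to sodium, and several SLC7 light chains reach the cell surface only when bound to a shared heavy chain, CD98, encoded by Slc3a2. Leucine and arginine are sensed upstream of the growth kinase complex mTORC1, in part at the lysosome. When amino acids run short, the kinase GCN2 and the transcription factor ATF4 are known to raise the transcription of many carriers and biosynthetic enzymes, the integrated stress response, and MYC is known to promote expression of several of the same carriers.

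Total counts ranged from 6120030 to 7162036 per sample. Kit, the marker of the sort, had 1022 to 1580 counts in each sample, and Itgam, which encodes CD11b, had at most 4. Markers of other cells were low for mature myeloid cells (14 genes, summed level 47.5 to 113 CPM in Vehicle and 18.0 to 223 in AG636), B cells (9 genes, 9.84 to 20.7 and 17.6 to 42.8 CPM) and T and NK cells (10 genes, 3.80 to 10.1 and 5.91 to 20.1 CPM), where CPM is the count scaled to a common library size. They were high for erythroid cells (15 genes, 7005 to 10868 and 9254 to 11532 CPM). Stem and progenitor genes (11 genes) summed to 958 to 1143 CPM in Vehicle and 1113 to 1310 in AG636. Myb alone made up 45.3% of that sum, and Gata2 and Kit were at 370 and 163 CPM in Vehicle. Other members were low, with Mpo at 3.18, Meis1 at 1.72 and Cd34 at 8.63 CPM in Vehicle. Flt3 had at most 5 counts in any sample and Hoxa9 was at 0 throughout. By limma-voom 1 of 15 erythroid genes tested was called, Hbb-bt (log2 fold change 0.90, adjusted p = 0.0238), and 1 of 6 B cell genes tested, Cd79a (1.83, adjusted p = 0.0266), both higher in AG636, where 5.47% of all tested genes were called higher. DESeq2 called 3 erythroid and 2 B cell genes higher, and edgeR 2 and 1. Over all 10911 tested genes DESeq2 called 955 higher and edgeR 694, compared with 597 by limma-voom. These calls were lost without Vehicle sample 2, 3 or 4 for Hbb-bt (adjusted p up to 0.0745) and without Vehicle sample 1, 2 or 3 for Cd79a (up to 0.0921). The part of these marker differences in the transporter results was not tested. AG636 sample 3 stood apart in the megakaryocyte and mast cell list (8 genes), with a summed level of 372 CPM, compared with 48.7 to 120 CPM in Vehicle and 79.2 to 172 in the other AG636 samples. In that list Pf4, which encodes platelet factor, was at 2.52 ± 2.29 and 16.0 ± 10.05 CPM (log2 fold change 2.89, adjusted p = 0.0943), and 1 gene was called higher by each of edgeR, DESeq2 and limma-trend and 0 by limma-voom, with 1 at an unadjusted p under 0.05.

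To ask whether AG636 treatment was accompanied by a change in carrier transcripts, AG636 samples were compared with Vehicle samples. Slc1a5, Slc7a1 and Slc7a5 were lower in AG636, by log2 fold changes of −0.95, −0.93 and −0.76. The 3 genes are 3 of the 8 tested, where 8.49% of all 10911 genes tested were called lower and 14.0% were called in either direction. Since the carriers were chosen with earlier results known, their share beside that of all genes is a description only. Over all genes 926 were called lower and 597 higher, a split that became 571 and 918 with library size alone, where Slc1a5 and Slc7a1 were still called lower. By limma-voom 0 of the 8 were called higher, where 5.47% of all genes were, and 0 were higher at an unadjusted p under 0.05 with limma-voom, edgeR, DESeq2 or limma-trend. Because RNA was pooled from many cells, fewer cells of a type and less RNA per cell cannot be told apart.

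**Figure D1:**
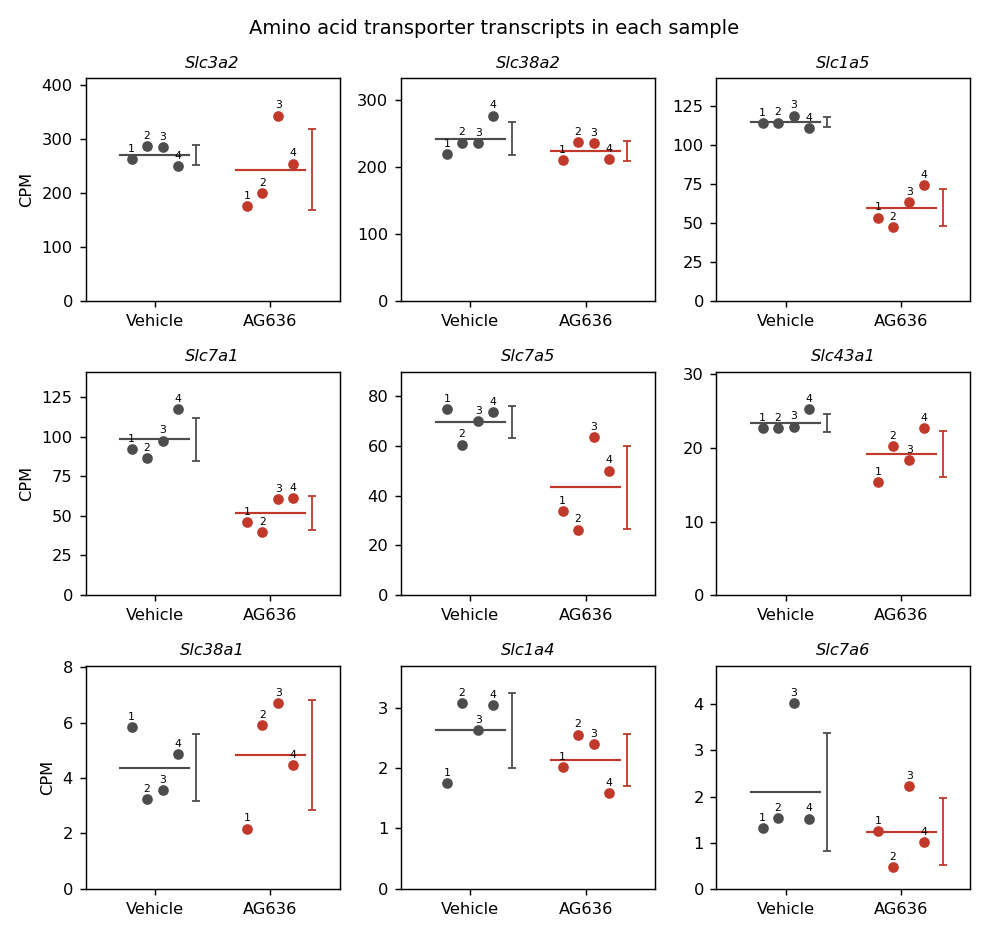
Level of 9 of the 10 transporters in each sample, in CPM on axes that start at 0; Slc7a11, with 1 count in all, is not drawn. Points are samples with their replicate number, horizontal lines are group means and bars beside them are 1 SD (n = 4); Slc1a5 and Slc7a1 show no overlap between groups, whereas AG636 sample 3 lies inside the Vehicle range for Slc7a5 and above it for Slc3a2.

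Slc1a5 encodes the sodium-dependent exchanger ASCT2, the main glutamine carrier of many proliferating cells, and lies on chromosome 7 at 16781340 to 16798274 (GRCm38, plus strand). Its level was 114, 114, 119 and 111 CPM in Vehicle samples 1 to 4 and 53.5, 47.6, 63.7 and 74.6 CPM in AG636 samples 1 to 4. The highest AG636 sample was well below the lowest Vehicle sample, and the Vehicle samples lay close together. The mean fell from 115 ± 3.32 to 59.8 ± 11.9 CPM (SD, n = 4), a ratio of 0.516 (95% interval 0.426 to 0.625), which is −0.95 on the log2 scale (SE 0.13, adjusted p = 0.00216). It stood at rank 132 of the 10911 genes, counted from the largest fall.

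Slc7a1 encodes CAT1, the widely expressed importer of arginine, lysine and ornithine, and lies on chromosome 5 at 148327410 to 148399904 (minus strand). Vehicle samples held 91.9, 86.4, 97.5 and 117 CPM and AG636 samples 45.9, 39.7, 60.3 and 61.1 CPM. Here too every AG636 sample was below every Vehicle sample. The mean fell from 98.2 ± 13.4 to 51.8 ± 10.6 CPM, a ratio of 0.523 (0.416 to 0.658), which is −0.93 on the log2 scale (SE 0.15, adjusted p = 0.00454).

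Slc7a5 encodes LAT1, the light chain that exchanges glutamine for leucine and other large neutral amino acids, and lies on chromosome 8 at 121881150 to 121907694 (minus strand) within Gm20388, an opposite-strand gene listed at 0 counts. Its level was 74.6, 60.4, 69.8 and 73.6 CPM in Vehicle and 33.6, 26.3, 63.4 and 50.0 CPM in AG636. AG636 sample 3 was above Vehicle sample 2, and the other AG636 samples were below all of Vehicle. The mean fell from 69.6 ± 6.48 to 43.3 ± 16.6 CPM, with a log2 fold change of −0.76 (SE 0.22, 95% interval −1.24 to −0.27, adjusted p = 0.0431). This call depended on the analysis, since the adjusted p was 0.0632 with edgeR, 0.0503 with upper-quartile scaling and 0.0682 with library size alone, and between 0.0656 and 0.110 when any 1 of the 4 Vehicle samples, AG636 sample 1 or AG636 sample 2 was left out. Without AG636 sample 3 the log2 fold change was −0.96 and the adjusted p = 0.00867.

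Slc3a2 encodes the CD98 heavy chain that carries LAT1 and related light chains to the membrane, and lies on chromosome 19 at 8706882 to 8723369 (minus strand). It was the most abundant of the 10 by mean in both groups and lay above 94.2% of tested genes. Vehicle samples held 262, 287, 285 and 249 CPM and AG636 samples 176, 201, 343 and 255 CPM. AG636 samples 1 and 2 were below all of Vehicle and AG636 sample 3 was above it, so that the groups overlapped on both sides. The means were 271 ± 18.3 and 244 ± 74.2 CPM, and the log2 fold change of −0.20 (95% interval −0.58 to 0.19, adjusted p = 0.481) did not pass. Single AG636 samples moved this value in both directions, to −0.06 without sample 1 (adjusted p = 0.841), −0.12 without sample 2 (0.702) and −0.38 without sample 3 (0.0597).

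Slc7a6 encodes y+LAT2, a light chain that exchanges cationic for neutral amino acids and also binds the CD98 heavy chain, and lies on chromosome 8 at 106168857 to 106198706 (plus strand). It had 9, 10, 26 and 10 counts in Vehicle and 8, 3, 14 and 7 counts in AG636, and did not pass the filter on low counts. The groups overlapped, and within each group sample 3 was the highest. Slc7a11 (chromosome 3, 49892526 to 50443614, minus strand) encodes xCT, the light chain that imports cystine for glutathione synthesis. It had 1 count in Vehicle sample 4 and 0 in the other 7 samples, where a count of 0 allows a level of up to 0.434 to 0.479 CPM by counting error. No change in Slc7a11 was detectable at this depth.

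Slc38a2 encodes SNAT2, a sodium-coupled carrier of glutamine, alanine and serine whose transcript is known to rise when amino acids are scarce. Slc38a1 encodes the related SNAT1, and both lie on chromosome 15, at 96687392 to 96699730 and 96571418 to 96642913 (minus strand). Slc38a2 was at 219, 237, 236 and 277 CPM in Vehicle and at 210, 237, 236 and 212 CPM in AG636, so that the groups overlapped. Its log2 fold change was −0.11 (95% interval −0.31 to 0.09, adjusted p = 0.447), and a change as large as that of Slc1a5 or Slc7a1 lies outside this interval. Slc38a1 was far less abundant, at 5.83, 3.23, 3.56 and 4.87 CPM in Vehicle and 2.18, 5.91, 6.70 and 4.48 CPM in AG636. Its log2 fold change was 0.05 with an interval of −0.73 to 0.84, a width that leaves changes of either sign possible.

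Slc1a4 encodes ASCT1, an exchanger of serine, alanine and threonine and the paralog of Slc1a5, and lies on chromosome 11 at 20302180 to 20332713 (minus strand). It was near the lower limit of what was tested, with 1.75, 3.07, 2.63 and 3.04 CPM in Vehicle and 2.02, 2.55, 2.39 and 1.59 CPM in AG636, and its log2 fold change of −0.28 (95% interval −0.95 to 0.39, adjusted p = 0.582) did not pass. Slc43a1 encodes LAT3, a facilitative carrier of branched-chain amino acids and phenylalanine that needs no heavy chain, and lies on chromosome 2 at 84838850 to 84863594 (plus strand). Its level was 22.7, 22.7, 22.9 and 25.3 CPM in Vehicle and 15.4, 20.3, 18.4 and 22.7 CPM in AG636. Every AG636 sample was below every Vehicle sample, AG636 sample 4 only just, and the log2 fold change was −0.30 (95% interval −0.59 to 0.003, adjusted p = 0.167). With Slc1a5 and Slc7a1, 3 of the 8 tested carriers had no overlap and were lower, a pattern found in 12.9% of all tested genes. The opposite pattern was found in 0 of the 8 and in 9.35% of all tested genes.

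**Figure D2:**
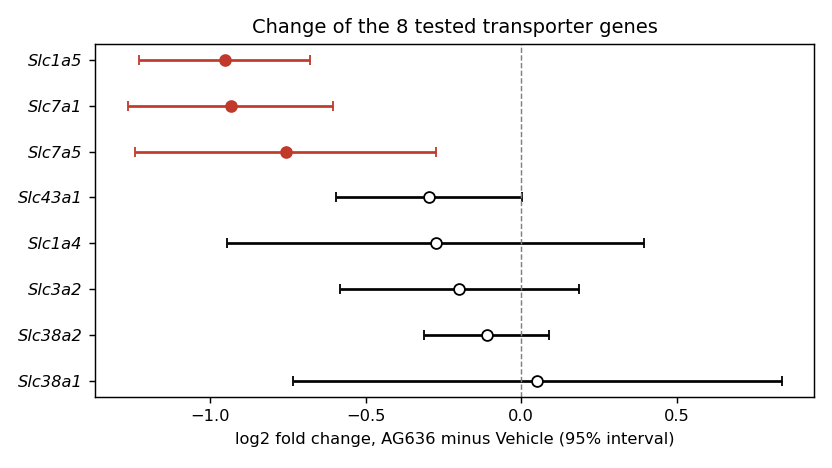
log2 fold change of the 8 tested transporters, AG636 minus Vehicle, with 95% intervals from limma-voom (n = 4 per group); filled red points have an adjusted p under 0.05. Slc1a5, Slc7a1 and Slc7a5 lie between −0.95 and −0.76, and the intervals of the other 5 include 0.

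QuantSeq reads the 3′ ends of transcripts, so levels can be set side by side between genes without scaling to transcript length. In Vehicle the order of mean levels was Slc3a2, Slc38a2, Slc1a5, Slc7a1, Slc7a5, Slc43a1, Slc38a1, Slc1a4, Slc7a6 and Slc7a11, and it was the same in AG636. In Vehicle, the neighbours whose ranges overlapped were Slc3a2 with Slc38a2, Slc1a5 with Slc7a1, and Slc1a4 with Slc7a6. In AG636 the ranges of Slc7a1 and Slc7a5, and of Slc38a1 and Slc1a4, overlapped as well. Together the 10 genes summed to 828 ± 29.7 CPM in Vehicle and 650 ± 115 CPM in AG636. Slc1a5, Slc7a1 and Slc7a5 made up 34.1 ± 1.49% of that sum in Vehicle and 23.7 ± 3.18% in AG636, a description of genes already seen to be lower.

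Ratios within a sample do not depend on how libraries are scaled, and 4 were compared between groups by exact permutation of the samples (two-sided), where no p below 0.0286 is possible. Slc7a5 relative to its heavy chain Slc3a2 was −1.81, −2.25, −2.03 and −1.76 in Vehicle and −2.39, −2.93, −2.44 and −2.35 in AG636 on the log2 scale. All 4 AG636 samples were below all Vehicle samples, including AG636 sample 3, in which both transcripts were the highest of the group. The difference was −0.56 (exact permutation p = 0.0286, the smallest possible, adjusted p = 0.114 over the 4 ratios) and did not pass after adjustment. The ratio of Slc1a5 to its paralog Slc1a4 differed by −0.68 (exact permutation p = 0.114, adjusted p = 0.229), that of Slc38a2 to Slc38a1 by −0.17 (p = 0.657, adjusted p = 0.876) and that of Slc7a5 to Slc7a6 by −0.01 (p = 1.0), and none of these passed.

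The fall of Slc1a5 and Slc7a1 passed in each of 20 alternative analyses, and in the analysis as reported both also passed a threshold of 0.01. The log2 fold change ranged from −1.05 to −0.85 for Slc1a5 and from −1.01 to −0.82 for Slc7a1, with adjusted p of at most 0.0120 and 0.0194. Slc7a5 stayed negative, from −0.96 to −0.55, and passed in 11 of 20 alternatives.

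**Figure D3:**
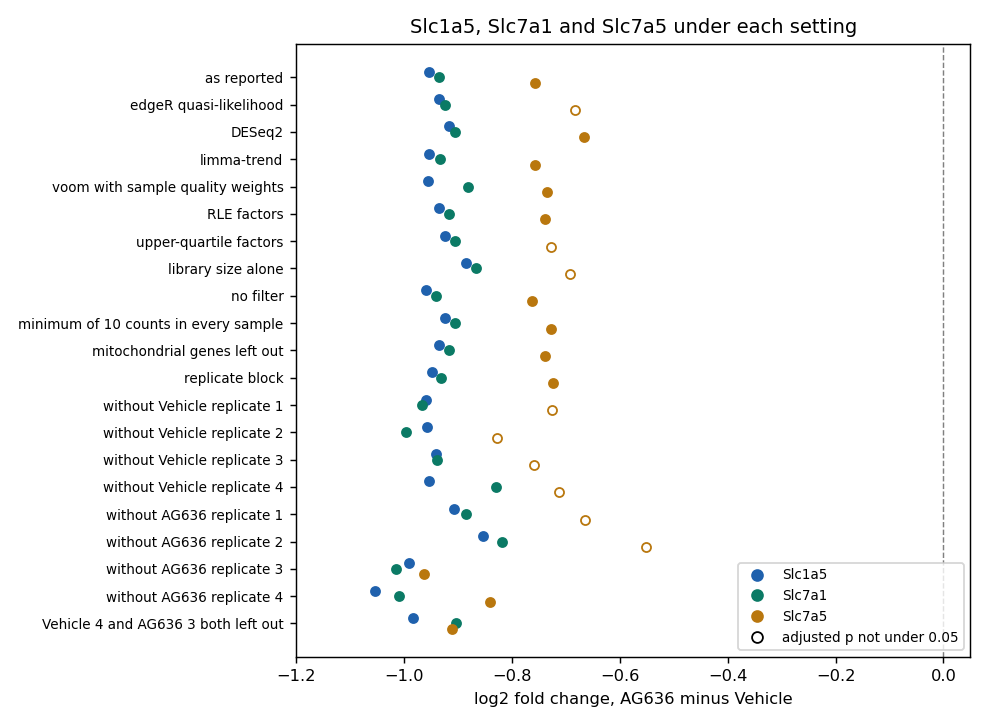
log2 fold change (AG636 minus Vehicle) of Slc1a5, Slc7a1 and Slc7a5 in the analysis as reported and in 20 alternatives; open points have an adjusted p that is not under 0.05. All points are below 0, and the 9 open points are all of Slc7a5.

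To show which transcripts moved most like Slc1a5, the called carrier with the smallest p, the log2 CPM profiles of 5260 genes over the 8 samples were centred and set against it. The 5 nearest were Nolc1, Srm, Nhp2, Stk16 and Dctpp1, with root mean square differences of 0.074, 0.083, 0.085, 0.099 and 0.105 on the log2 scale. Nolc1 and Nhp2 encode nucleolar proteins, Srm encodes spermidine synthase, Stk16 a Golgi-associated kinase and Dctpp1 a pyrophosphatase that removes dCTP. Among the carriers, Slc7a1 was the nearest at rank 20 and Slc7a5 followed at rank 219, while Slc3a2 and Slc38a2 were at ranks 1504 and 2177. The profiles hold the difference between groups, so this order in part restates the log2 fold changes, which were −0.93, −0.76, −0.20 and −0.11 for these carriers.

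Promoter windows from RefSeq (GRCm38.p6, 250 bases before to 50 after a transcription start) were found for 7 of the 10 genes, Slc7a1, Slc7a6, Slc7a11, Slc3a2, Slc1a4, Slc38a2 and Slc43a1, 9 windows in all. Slc7a5, Slc1a5 and Slc38a1 were not among them. Both strands were searched for TGATGNAA, the core of the element through which ATF4 acts, for the E-box CACGTG, to which MYC binds, and for AANATGGCG, the core of the YY1 motif, which are held by 3.97%, 7.15% and 2.38% of 32851 RefSeq promoter windows of the same length. TGATGNAA occurred in Slc7a11, starting 66 and 47 bases before the start site, and in Slc1a4, starting 4 bases before it and spanning it. CACGTG occurred in Slc43a1, 64 bases before the start. The windows of Slc7a1, Slc7a6, Slc3a2 and Slc38a2 held no match to these letters. Bases outside the windows, such as introns further into the genes, were not searched, so elements there would be missed. The window of Slc3a2, with its start at 8713897, lies wholly inside the gene. The same holds for the window of Slc43a1 with the CACGTG match (start at 84840323) and for 1 of the Slc7a1 windows (start at 148392815). In the Slc3a2 window and in 1 of the Slc7a6 windows the bases just after the start were not found unbroken in a GENCODE M21 transcript of the gene. The bases before the start are printed for Slc7a1, the called gene with a window, and for the 2 genes with TGATGNAA, in capitals on either strand, and for Slc1a4 the run goes on to the end of the match.
Slc7a1, chr5:148399905-148400054, minus strand: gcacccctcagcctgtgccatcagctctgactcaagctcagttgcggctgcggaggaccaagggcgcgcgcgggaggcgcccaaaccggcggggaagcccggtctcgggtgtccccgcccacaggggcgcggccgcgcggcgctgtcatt
Slc7a11, chr3:50443614-50443763, minus strand: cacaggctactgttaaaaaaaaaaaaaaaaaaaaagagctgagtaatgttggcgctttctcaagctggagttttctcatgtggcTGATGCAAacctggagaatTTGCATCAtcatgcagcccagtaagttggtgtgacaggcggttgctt
Slc1a4, chr11:20332710-20332863, minus strand: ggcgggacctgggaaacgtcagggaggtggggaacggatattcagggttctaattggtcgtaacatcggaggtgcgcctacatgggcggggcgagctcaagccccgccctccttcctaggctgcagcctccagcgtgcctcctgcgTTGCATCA

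The other genes of amino acid transport and use were read from the same fit, in 8 lists. These lists too were chosen with earlier results of these data known, so their shares beside those of all genes are a description only. Of 44 other carriers of the plasma membrane and lysosome, 16 were tested. By limma-voom 1 was called higher and 0 lower, where 5.47% and 8.49% of all tested genes were. By that tool 2 were lower at an unadjusted p under 0.05, and 0 were called lower by edgeR or DESeq2. The median log2 fold change was 0.13, compared with −0.01 over all genes. The gene called was Slc38a9, the lysosomal arginine sensor that also exports leucine, which rose from 58.7 ± 10.6 to 105 ± 34.9 CPM (log2 fold change 0.79, adjusted p = 0.0342) with no overlap between groups. This call was lost without Vehicle sample 1, 2 or 3 or AG636 sample 1 or 2 (adjusted p 0.0524 to 0.0953). Slc7a7 and Slc7a8 encode further light chains of CD98 and are given for that reason. Slc7a7 was at 20.8 ± 1.09 and 26.1 ± 2.42 CPM (adjusted p = 0.0836), and Slc7a8 was at 61.3 ± 29.1 and 60.3 ± 68.6 CPM, a spread larger than the mean in AG636.

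Of 12 carriers of the mitochondrial membrane, 8 were tested, and 3 were called lower and 1 higher by limma-voom, edgeR and DESeq2 alike. By limma-voom 8.49% of all tested genes were called lower and 5.47% higher. Sfxn1, the mitochondrial serine importer, fell from 459 ± 25.0 to 306 ± 21.7 CPM (log2 fold change −0.59, adjusted p = 0.00249) and was more abundant in Vehicle than any of the 10 plasma membrane carriers. Slc25a22, a glutamate carrier, fell by 0.43 and Slc25a15, an ornithine carrier, fell by 0.58 on the log2 scale (adjusted p = 0.0329 and 0.0407). Slc25a38, which brings glycine to haem synthesis, rose by 0.82 (adjusted p = 0.0488) with overlap between groups. The calls of Slc25a22 and Slc25a15 were lost without Vehicle sample 2, 3 or 4 or AG636 sample 1 or 2 (adjusted p 0.0625 to 0.0897 and 0.0733 to 0.108). That of Slc25a38 was lost without any single sample other than AG636 sample 3 (0.0561 to 0.128), and that of Sfxn1 was kept in all 8 cases.

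From a list of 10 genes linked to arginine or ornithine, not all of which use arginine, 7 were tested. Limma-voom, edgeR and DESeq2 each called 5 lower and 0 higher (0 higher at an unadjusted p under 0.05). By limma-voom 8.49% of all tested genes were called lower. The median log2 fold change was −0.54. Odc1, the first enzyme of polyamine synthesis, fell from 413 ± 17.9 to 287 ± 46.2 CPM (−0.54, adjusted p = 0.0110), and Azin1, which encodes an activator of that enzyme, fell by 0.65 (adjusted p = 0.0132). The arginine methyltransferases Prmt5 and Prmt1 fell by 0.62 and 0.37 (adjusted p = 0.00567 and 0.0214). Ass1, which makes the precursor of arginine from citrulline and was named after its values were seen, was low and fell from 10.7 ± 2.21 to 5.24 ± 2.11 CPM (adjusted p = 0.0308). The call of Prmt1 was lost without Vehicle sample 1, 3 or 4 or AG636 sample 1 (0.0526 to 0.0710), and that of Ass1 without Vehicle sample 2, 3 or 4 or AG636 sample 1 or 2 (0.0662 to 0.0859).

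Of 28 genes of the integrated stress response, 22 were tested, and 1 was called higher and 3 lower by limma-voom, a share near the 14.0% of all tested genes called in either direction. Of the 22, 14 had a negative and 8 a positive log2 fold change, and by limma-voom 3 were higher and 7 lower at an unadjusted p under 0.05. DESeq2 called 2 higher and 4 lower, and edgeR 2 and 3. Over all tested genes DESeq2 called 955 higher and 1009 lower, and edgeR 694 and 918. Ddit4, an inhibitor of mTORC1 signalling, rose from 16.4 ± 1.87 to 39.9 ± 7.16 CPM (1.27, adjusted p = 0.00214). The 3 genes that fell all encode enzymes of serine and glycine synthesis, Phgdh (−1.04, adjusted p = 0.0181), Psph (−0.71, adjusted p = 0.0181) and Shmt2 (−0.53, adjusted p = 0.0262). The call of Phgdh was lost without Vehicle sample 1 or 2 or AG636 sample 1 (0.0516 to 0.0561), that of Psph without Vehicle sample 3 (0.0504) and that of Shmt2 without Vehicle sample 3 or 4 or AG636 sample 1 or 2 (0.0513 to 0.0690). Atf4 itself was at 199 ± 40.2 and 146 ± 23.4 CPM (−0.44, adjusted p = 0.0716). This is an RNA level, and protein was not measured in these samples. In another AML model the study reports more ATF4 protein in cultured cells given AG636. It also reports ATF4 motifs enriched where chromatin became more accessible in that model. Asns, the asparagine synthetase gene and a known ATF4 target, was at 480 ± 18.7 and 455 ± 67.2 CPM (−0.09, adjusted p = 0.629). It was named after its values were seen and does not stand for the list. Myc, given beside these as a known regulator of Slc1a5 and Slc7a5, changed by −0.77 on the log2 scale (SE 0.15, adjusted p = 0.00867). Its part in the carrier levels was not tested, and its call was not followed through the alternative analyses. The study states, without naming a model there, that AG636 left short-lived transcripts, Myc among them, unaffected. The RNA value given here differs from that statement. The study also reports less MYC protein in cultured cells of another AML model given AG636.

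Of 16 enzymes of glutamine, glutamate and asparagine, 14 were tested, and 3 were called lower and 0 higher by limma-voom, as by edgeR and DESeq2 (1 higher at an unadjusted p under 0.05 by limma-voom). By limma-voom 8.49% of all tested genes were called lower. The 3 were the glutaminase gene Gls2 (−0.67, adjusted p = 0.0364) and 2 genes of proline synthesis, Pycrl (−0.78, adjusted p = 0.0136) and Aldh18a1 (−0.39, adjusted p = 0.0372). The call of Gls2 was lost without any single sample other than AG636 sample 3 (0.0522 to 0.104), and that of Aldh18a1 without any Vehicle sample or AG636 sample 2 or 4 (0.0686 or above).

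Of 36 genes of amino acid sensing, mTORC1 and its regulators, 32 were tested. Limma-voom, edgeR and DESeq2 each called 2 higher and 0 lower (0 lower at an unadjusted p under 0.05). That share was near the 5.47% of all tested genes called higher by limma-voom. The genes called were Wdr59 of the GATOR2 complex (0.71, adjusted p = 0.0134) and Fnip1, a partner of folliculin (0.36, adjusted p = 0.0376). The call of Fnip1 was lost without any Vehicle sample or AG636 sample 1 or 2 (0.0516 to 0.119). Of 18 genes of cystine reduction and glutathione, 12 were tested and 1 was called lower by limma-voom, where 8.49% of all tested genes were. It was the thioredoxin reductase gene Txnrd1 (−0.43, adjusted p = 0.0307), a call lost without any Vehicle sample or AG636 sample 1 (0.0656 to 0.0839). In that list 0 genes were called higher by limma-voom or edgeR and 1 by DESeq2, with 2 at an unadjusted p under 0.05. Of 14 enzymes of branched-chain and aromatic amino acids, the substrates of LAT1 and LAT3, 9 were tested. Limma-voom, edgeR and DESeq2 called 0 of them, with 1 lower at an unadjusted p under 0.05. Over all tested genes limma-voom called 14.0% in either direction.

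**Figure D4:**
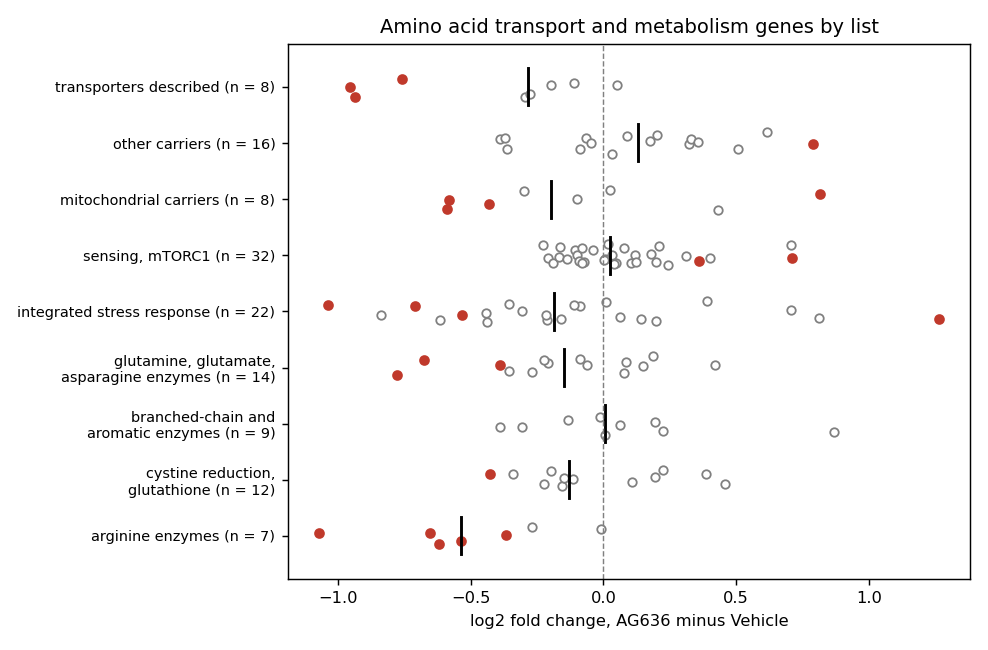
log2 fold change (AG636 minus Vehicle) of each tested gene in the 10 transporters and the 8 further lists, with the number tested in brackets; filled red points have an adjusted p under 0.05 and black bars are list medians. Called genes lie on the lower side in the list linked to arginine or ornithine (5 of 7), not all of which use arginine. They lie on both sides in the mitochondrial and stress response lists.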

How the data were processed

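RNA of 8 sorted AML samples was measured with a QuantSeq 3′ kit. The values are raw read counts per gene as the authors deposited them. Per the submitters' processing notes, reads were trimmed with cutadapt 1.9.1, mapped to GRCm38 (mm10) with HISAT2 2.0.4 and counted with featureCounts of Subread 1.5.0-p3. The study's methods give other versions of cutadapt and Subread, and they do not state how strand and reads with several positions were treated. Counts of genes with close copies or overlapping neighbours are uncertain for that reason. Symbols were assigned by Ensembl identifier, which left 115 genes without one. All 10 transporters have the same coordinates in GENCODE M21.

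Samples were grouped by their labels. No pair of replicates agreed within sampling noise by a chi-square test. Genes were kept by filterByExpr with a minimum count of 10, scaled by TMM and tested with limma-voom in a single model of both groups (R 4.3.3 with limma 3.58.1 and edgeR 4.0.16), two-sided, with Benjamini-Hochberg adjustment over the 10911 genes tested and a threshold of 0.05. CPM uses the TMM-scaled library size, and errors are SDs over 4 samples. Ratios used counts with 0.5 added. Depth was 6120030 to 7162036 counts, and the limit for a count of 0 is 3 counts, for counting error only. The fit was tested on simulated data. Alternatives were edgeR, DESeq2 1.42.0, limma-trend, sample weights, other scalings and filters, mitochondrial genes left out, a replicate block, each sample left out, and a threshold of 0.01.

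The transporters and lists were chosen with earlier results of these data known, and some genes stand in more than 1 list. From each list the called genes of smallest p are named, at most 4, with Atf4 and Myc as reference genes. Genes whose profile was set against Slc1a5 had a mean log2 CPM of at least 5. Ass1, Asns, Slc7a7, Slc7a8 and Pf4 fall outside that rule and were added after their values were seen. Values of some genes are not reported here.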

Additional observations from a re-analysis of the deposited data

Results flagged for a closer look

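Each group of 4 samples was searched for a sample far from the other 3, over 24 combinations of measure and group, of which chance would be expected to mark about 1.2. There were 2. The log2 CPM of Slc43a1 in Vehicle sample 4 was 4.68, where the other Vehicle samples lay between 4.53 and 4.54. The log2 ratio of Slc7a5 to Slc3a2 in AG636 sample 2 was −2.93, where the other AG636 samples lay between −2.44 and −2.35.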

How the results depend on the processing

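Of the 10 transporters, 2 or 3 were called under each alternative, all lower. The number of genes called, 1523, became 435 at an adjusted p under 0.01 and 688 to 1706 with 1 sample left out, and was moved by over 1.5 times when any Vehicle sample was left out (798, 918, 688 and 1010 without Vehicle samples 1 to 4). The causes were not tested. The share of calls that were lower was 60.8% with TMM and 38.3% with library size alone, while no scaling moved the median log2 fold change of all genes by more than 0.070. Slc38a1 changed sign, to −0.0051 with sample weights, to −0.055 without Vehicle 4 and AG636 3 (chosen after seeing the data), and over a range of −0.14 to 0.38 with 1 sample left out. The ratio of Slc7a5 to Slc7a6 ranged from −0.37 to 0.19 with 1 sample left out. Same-numbered samples had correlations of −0.14, 0.01, 0.20 and 0.14, so the numbers were not taken to pair samples. With the replicate block, 1446 genes were called and Slc7a5 had an adjusted p of 0.0342, and the same 3 transporters were called, while Slc25a22, Fnip1, Aldh18a1 and Hbb-bt passed the threshold no more (adjusted p 0.0541, 0.0532, 0.0570 and 0.0532). Low counts limit the precision for Slc7a6, Slc7a11, Slc1a4 and Slc38a1.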
